A study of Mus musculus with 9 samples.

Results

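Endoderm forms the gut, liver, lung and yolk sac linings, and the forkhead factor Foxa2 is one of the earliest genes that endoderm shares with the floor plate of the neural tube. The expression of 9 genes known from endoderm was followed in cells sorted from mouse neural tube organoids for a fluorescent reporter of Foxa2. The genes are Sox17, Gata4, Gata6, Foxa3, Hnf4a, Afp, Ttr, Cer1 and Gsc. They were chosen by name, with earlier results of these data known. Each matched 1 Ensembl gene ID, so that 9 of the 54532 genes in the counts table are described. Sox17, Gata4, Gata6, Foxa3 and Hnf4a encode transcription factors that work in sequence as endoderm is specified and matures. Afp and Ttr encode secreted proteins of the yolk sac and liver, while Cer1 and Gsc are known from the signalling centres that pattern the early embryo.

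The organoids grew clonally in Matrigel from mouse embryonic stem cells of the R1 line with the FoxA2-Venus genotype, in N2B27 medium, and all groups share this line. The medium was replaced on day 2, and RNA was taken 66 h later from cells sorted with a GFP filter set. There were 3 groups of 3 biological replicates: GFP+ cells from medium with SAG, a small molecule that activates hedgehog signalling through Smoothened (SAG GFP+), GFP+ cells from medium with all-trans retinoic acid (RA GFP+), and GFP- cells from that same RA medium (RA GFP-). The RA dose is 250 nM in the series text and 250 µM in the treatment protocol, and was not settled here, while SAG is named in the sample titles alone with no dose, and the labels do not say whether that medium also held RA. No GFP- cells from SAG medium were analysed here. Nothing says whether the replicates came from separate cultures, so p-values measure the spread between these samples, which may be technical.

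Total counts were 25281871 to 29763765 per library. Levels are given in CPM, counts per 1000000, where a library's size is its total over the tested genes times a TMM factor. Foxa2 averaged 248 ± 68.2 CPM in SAG GFP+, 158 ± 25.8 CPM in RA GFP+ and 2.11 ± 0.669 CPM in RA GFP- libraries (SD, n = 3 each), so the sort separated the libraries as labelled. Markers of neural progenitors, the labelled tissue, summed to 1158 to 1320 CPM in SAG GFP+, 485 to 700.0 CPM in RA GFP+ and 1141 to 1291 CPM in RA GFP- libraries. SAG GFP+ replicate 1 stood apart from the other SAG libraries: T, the notochord and mesoderm factor, had 110 CPM in it against 7.94 and 9.81 CPM in replicates 2 and 3. Markers of pluripotent cells summed to 60.5 to 225 CPM in SAG GFP+, 35.1 to 47.4 CPM in RA GFP+ and 588 to 960 CPM in RA GFP- libraries, and floor plate markers to 1201 to 1664 CPM, 866 to 1320 CPM and 225 to 303 CPM in SAG GFP+, RA GFP+ and RA GFP- libraries. The part of these cells in the results was not tested. Results that turn on SAG GFP+ replicate 1 are given with and without it.

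Upstream DNA was at hand for 5 of the 9 genes, as RefSeq windows of 250 bases before a start site (GRCm38.p6). Those of Afp, Cer1 and Foxa3 are printed, chosen to show windows with and without a forkhead core. They lie before the annotated exons, while the windows of Gsc and Hnf4a run into exons. Capitals mark a forkhead core (the letters TGTTTAC were searched, as were the letters TGTTTGC, then the variant TATTTAC and finally the variant TATTTGC), searched on both strands, and no marked matches overlap.
Afp (chr5:90490464-90490713, plus strand): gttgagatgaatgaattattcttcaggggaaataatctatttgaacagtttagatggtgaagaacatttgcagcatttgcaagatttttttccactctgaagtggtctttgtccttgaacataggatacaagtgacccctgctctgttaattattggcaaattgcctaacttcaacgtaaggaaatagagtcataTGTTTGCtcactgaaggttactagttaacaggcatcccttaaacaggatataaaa
Cer1 (chr4:82885152-82885401, minus strand): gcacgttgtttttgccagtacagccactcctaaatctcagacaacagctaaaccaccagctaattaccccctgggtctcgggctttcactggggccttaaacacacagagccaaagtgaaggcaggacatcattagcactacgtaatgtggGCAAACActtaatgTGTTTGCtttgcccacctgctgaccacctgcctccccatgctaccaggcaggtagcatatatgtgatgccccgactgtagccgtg
Foxa3 (chr7:19023540-19023789, minus strand): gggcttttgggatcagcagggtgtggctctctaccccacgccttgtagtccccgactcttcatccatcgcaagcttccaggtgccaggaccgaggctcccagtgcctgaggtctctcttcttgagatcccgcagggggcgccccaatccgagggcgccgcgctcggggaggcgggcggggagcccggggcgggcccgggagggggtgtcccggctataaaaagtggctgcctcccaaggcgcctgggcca

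The Afp window held 1 forkhead core, 55 to 49 bases before the start. The Cer1 window held 2 forkhead cores on opposite strands, the nearer one 85 to 79 bases before the start. The windows of Foxa3, Gsc and both Hnf4a starts held none. Of 32851 windows of the same length, 11.9% held a forkhead core. A match describes these letters only and is no evidence of binding.

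RA GFP+ cells stood out among the 3 groups. Sox17, Gata4, Gata6 and Afp were higher in them than in RA GFP- cells, and Sox17, Gata6, Afp and Foxa3 were lower in SAG GFP+ than in RA GFP+ cells although every SAG GFP+ library held more Foxa2 (205 to 326 CPM) than every RA GFP+ library (133 to 184 CPM). Hnf4a had its highest mean in RA GFP- cells, while Gsc and Cer1 had theirs in SAG GFP+ cells. A gene is called higher or lower at an adjusted p under 0.05 in edgeR's quasi-likelihood test, with Benjamini-Hochberg adjustment over all 16772 tested genes. Of the 9 genes, 7 passed the filter on low counts, and Ttr and Cer1 did not. Afp passed it through the RA GFP+ libraries alone, so its call adds nothing to the count.

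Between RA GFP+ and RA GFP- cells 4 of the 7 tested genes rose and 3 were not called, where 16.9% of all tested genes were called, 8.49% higher and 8.43% lower. Between SAG GFP+ and RA GFP+ cells 4 of the 7 fell and 3 were not called, where 24.5% of all tested genes were called, 9.78% higher and 14.8% lower. Between SAG GFP+ and RA GFP- cells, which differ in both sort and medium, 1 rose and 2 fell, where 28.5% of all tested genes were called, 12% higher and 16.5% lower. The median log2 fold change of the 7 genes was 1.23, -1.66 and 0 in these 3 comparisons, beside -0.02, -0.02 and -0.01 over all tested genes, and 1.14, -1.64 and -0.14 without Afp, whose fitted fold change is no bound. Afp reached the filter level in RA GFP+ libraries alone, so it had to differ, and without it 3 of 6 rose in RA GFP+ against RA GFP- cells and 3 of 6 fell in SAG GFP+ against RA GFP+ cells. Hnf4a reached that level in 3 RA GFP-, 1 RA GFP+ and 0 SAG GFP+ libraries, and Gsc in 2 SAG GFP+, 1 RA GFP+ and 0 RA GFP- libraries. Each was tested mainly through the group where it is high. Their calls between SAG GFP+ and RA GFP- cells therefore add little to the count. With the replicate number as a block in the 6 RA libraries, the same 4 rose and Hnf4a fell among 6 tested members in RA GFP+ against RA GFP- cells, where 32.2% of all tested genes were called, 16.1% in each direction. The comparisons share libraries in pairs, so they are not independent of each other. The genes were chosen with earlier results of these data known, so these counts and medians are no test of the list. In bulk RNA, more cells that express a gene and more RNA per cell cannot be told apart.

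**Figure D1:**
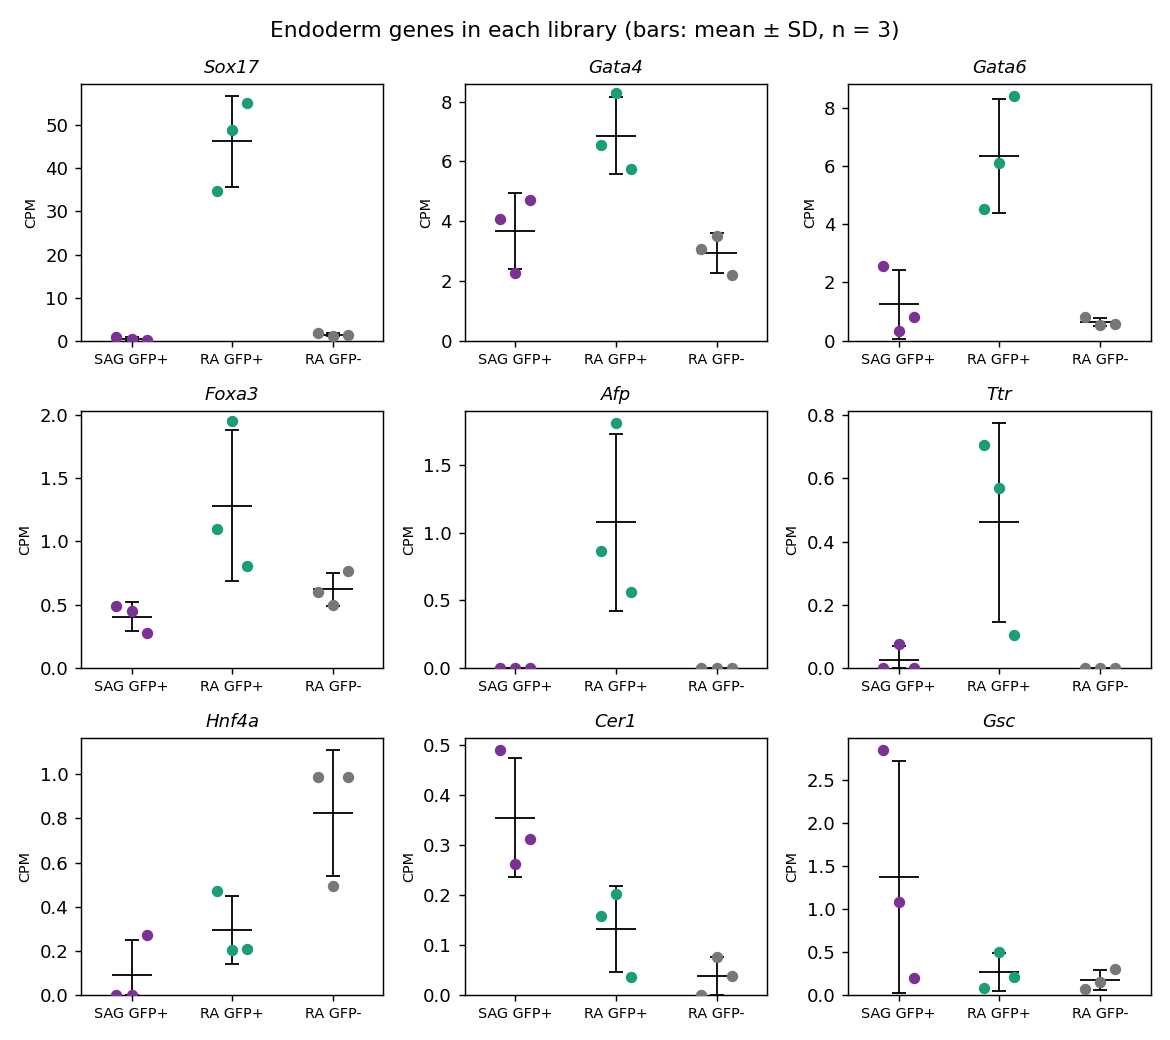
Level of each of the 9 genes in CPM (vertical axis, linear from 0, a scale for each gene) in the 3 libraries of SAG GFP+, RA GFP+ and RA GFP- cells (horizontal axis, replicates 1 to 3 from left to right); points are libraries and bars the mean ± SD, with the lower end cut at 0. Sox17, Gata6, Afp and Ttr are highest in RA GFP+, Hnf4a in RA GFP-, and Cer1 and Gsc have their highest mean in SAG GFP+.

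Sox17 (ENSMUSG00000025902, chromosome 1, 4490931 to 4497354, minus strand, GRCm38), an HMG-box factor that defines definitive endoderm, carried most of the difference. It stood at 0.896, 0.337 and 0.0389 CPM in SAG GFP+ replicates 1 to 3, at 34.6, 49.0 and 55.3 CPM in RA GFP+ and at 1.69, 0.991 and 1.29 CPM in RA GFP- libraries. All RA GFP+ libraries lay far above the others, and all SAG GFP+ libraries lay below all RA GFP- libraries. In the same-numbered RA pairs the level in GFP+ was 20.4, 49.5 and 42.7 times that in GFP-. Sox17 made up 0.588 to 7.89% of the summed CPM of the 9 genes in SAG GFP+ and 70.6 to 77.5% in RA GFP+ libraries, against 15.9 to 23.4% in RA GFP- libraries.

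SAG GFP+ cells had 109-fold less Sox17 than RA GFP+ cells (log2 fold change -6.77, SE 0.55, adjusted p = 1.1e-05). This was the 76th lowest fold change of 16772 genes, and it was -7.87 without SAG GFP+ replicate 1. Between RA GFP+ and RA GFP- cells Sox17 had the 23rd highest fold change (5.12, SE 0.48, adjusted p = 4.73e-05). Sox17 was also lower in SAG GFP+ than in RA GFP- cells (-1.66, SE 0.56, adjusted p = 0.0453), but this call was lost in 11 of 15 alternatives, with adjusted p from 0.000202 to 0.143. It was lost when any library other than SAG GFP+ replicate 1 was left out (0.0508 to 0.143), in DESeq2 (0.069) and in fits of the 6 libraries compared. Without SAG GFP+ replicate 1 the fold change was -2.76, and without SAG GFP+ replicate 3 it was -1.11 (adjusted p = 0.0934). Sox17 shares 16.8% of its exon bases with Gm37587 on the opposite strand, which had 6 counts over the 9 libraries.

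Sox17 is also known from endothelium, so markers of that cell type were set beside it. The 9 endothelial markers summed to 7.42 to 11.0 CPM in SAG GFP+, 63.0 to 79.9 CPM in RA GFP+ and 51.1 to 76.6 CPM in RA GFP- libraries. The adhesion gene Pecam1 averaged 6.36 CPM in RA GFP+ and 56.2 CPM in RA GFP- libraries, and made up most of the RA GFP- sum. Within the list Flt1, a VEGF receptor, averaged 36.8 CPM in RA GFP+ and 1.42 CPM in RA GFP- libraries. Sox18 averaged 14.85 CPM in RA GFP+ and 1.30 CPM in RA GFP- libraries, and Tek 7.10 and 3.41 CPM. Of the 8 that were tested, 3 rose (Flt1, Sox18 and Tek), 1 fell (Pecam1) and 4 were not called in RA GFP+ against RA GFP- cells. In SAG GFP+ against RA GFP+ cells 7 fell. Of all tested genes 8.49% rose and 8.43% fell in the first comparison, and 14.8% fell in the second. The vascular cadherin gene Cdh5 had no counts in SAG GFP+ libraries and 0.235 to 0.593 CPM in RA GFP+ libraries, against 0.419 to 0.918 CPM in RA GFP- libraries. Emcn had no counts in SAG GFP+ and RA GFP- libraries. Their part in the Sox17 difference was not tested.

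Gata6 and Gata4, zinc-finger factors of endoderm and of heart mesoderm, followed Sox17 on a smaller scale. Gata6 (ENSMUSG00000005836, chromosome 18, 11052064 to 11085635, plus strand) stood at 2.57, 0.337 and 0.818 CPM in SAG GFP+, at 4.51, 6.08 and 8.41 CPM in RA GFP+ and at 0.812, 0.533 and 0.571 CPM in RA GFP- libraries. RA GFP+ libraries lay above all others, and SAG GFP+ replicate 1 lay above the other SAG and all RA GFP- libraries. Gata6 rose in RA GFP+ against RA GFP- cells (log2 fold change 3.30, SE 0.61, adjusted p = 0.00336) and fell in SAG GFP+ against RA GFP+ cells (-2.36, SE 0.58, adjusted p = 0.0114). Both calls held in all 15 alternatives, and the second fold change was -3.43 without SAG GFP+ replicate 1. Between SAG GFP+ and RA GFP- cells it was not called (0.94, SE 0.61, adjusted p = 0.275), and the sign turned without SAG GFP+ replicate 1 (-0.13, adjusted p = 0.861, within 0.0776 to 0.861 over the alternatives). Gata6 shares 1.43% of its exon bases with 1010001N08Rik on the opposite strand, which had 19 counts.

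Gata4 (ENSMUSG00000021944, chromosome 14, 63198922 to 63271692, minus strand) differed least among the called genes. It stood at 4.07, 2.25 and 4.71 CPM in SAG GFP+, at 6.55, 8.30 and 5.75 CPM in RA GFP+ and at 3.07, 3.51 and 2.21 CPM in RA GFP- libraries. RA GFP+ libraries lay above both other groups, which overlapped each other. Gata4 rose in RA GFP+ against RA GFP- cells, by 2.13, 2.37 and 2.61 times in the same-numbered pairs (log2 fold change 1.23, SE 0.33, adjusted p = 0.0228). Leaving out 1 library ended that call in 4 cases: RA GFP- replicate 1 (0.0566) or 3 (0.0776) and RA GFP+ replicate 1 (0.055) or 2 (0.101), within 0.00162 to 0.101. In SAG GFP+ against RA GFP+ cells the log2 fold change of Gata4 was -0.90 (SE 0.32, adjusted p = 0.0627), past the threshold in DESeq2 (0.0267, within 0.0267 to 0.221), and against RA GFP- cells it was 0.33 (SE 0.33, adjusted p = 0.49).

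The 9 heart mesoderm markers, set beside the GATA factors, differed among themselves. They summed to 16.0 to 50.1 CPM in SAG GFP+, 7.26 to 8.82 CPM in RA GFP+ and 6.59 to 17.0 CPM in RA GFP- libraries. Tbx20, a T-box factor also known from motor neurons, made up most of the SAG GFP+ sum with 11.2, 42.7 and 44.5 CPM. Hand1 had 1 count over the SAG GFP+ libraries and 2.72 to 4.22 CPM in RA GFP+, below its 4.42 to 12.6 CPM in RA GFP- libraries, and Hand2 had 2 counts over the SAG GFP+ libraries and 1.04 to 1.37 CPM in RA GFP+, above its 0.152 to 0.572 CPM in RA GFP- libraries. Of the 6 that were tested, 6 were not called between RA GFP+ and RA GFP- cells, and Tbx20 and Mef2c rose while Hand1 and Hand2 fell in SAG GFP+ against RA GFP+ cells. Of all tested genes 16.9% were called in the first comparison, and 9.78% rose and 14.8% fell in the second. Mesp1 had no counts in RA GFP+ libraries, and the heart muscle gene Tnnt2 stayed at or below 0.403 CPM in all 9 libraries. Their part in the Gata4 and Gata6 levels was not tested.

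Foxa3 (ENSMUSG00000040891, chromosome 7, 19013284 to 19023538, minus strand), a forkhead factor of the Foxa2 family that acts in gut and liver, was low throughout. It stood at 0.489, 0.450 and 0.273 CPM in SAG GFP+, at 1.10, 1.95 and 0.802 CPM in RA GFP+ and at 0.600, 0.495 and 0.761 CPM in RA GFP- libraries. The 3 groups did not overlap, but RA GFP+ replicate 3 exceeded its same-numbered RA GFP- library only 1.05 times. Foxa3 was not called between RA GFP+ and RA GFP- cells (log2 fold change 1.05, SE 0.47, adjusted p = 0.161) or between SAG GFP+ and RA GFP- cells (-0.61, SE 0.50, adjusted p = 0.394). It fell in SAG GFP+ against RA GFP+ cells (-1.66, SE 0.49, adjusted p = 0.0282). Here 4 libraries were each needed for the call, namely RA GFP+ replicate 1 (0.0582 without it) or 2 (0.165, log2 fold change -1.23) and SAG GFP+ replicate 2 (0.0758) or 3 (0.099), within 0.0186 to 0.165. The order of the groups differed between Foxa2 and Foxa3: per kilobase of exon Foxa2 averaged 104 CPM in SAG GFP+ and 66.7 CPM in RA GFP+ libraries, and Foxa3 0.198 CPM in SAG GFP+ and 0.630 CPM in RA GFP+ libraries.

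Hnf4a (ENSMUSG00000017950, chromosome 2, 163506808 to 163572910, plus strand), a nuclear receptor of visceral endoderm and liver, ran the other way. It stood at 0, 0 and 0.273 CPM in SAG GFP+, at 0.470, 0.202 and 0.209 CPM in RA GFP+ and at 0.988, 0.495 and 0.990 CPM in RA GFP- libraries, which is 7, 24 and 67 counts in all. RA GFP- libraries lay above all others. Between RA GFP+ and RA GFP- cells it was not called (log2 fold change -1.49, SE 0.81, adjusted p = 0.254). The level in GFP+ was 0.476, 0.407 and 0.211 times that in GFP- in the same-numbered pairs, and with the replicate number as a block in the 6 RA libraries the adjusted p was 0.0487 (log2 fold change -1.50), within 0.0487 to 0.521. Hnf4a fell in SAG GFP+ against RA GFP- cells (-3.12, SE 0.95, adjusted p = 0.0294). It passed the filter through the RA GFP- libraries, so this call follows in part from its level there. This call was lost without RA GFP- replicate 1 (0.0817) or 3 (0.0647) and without SAG GFP+ replicate 1 (0.0633) or 2 (0.099), within 0.00347 to 0.099. Without SAG GFP+ replicate 3 the remaining SAG libraries had no counts, and Hnf4a was then also called lower than in RA GFP+ cells (0.0195, within 0.0195 to 0.568), where it was otherwise not called (-1.63, SE 1.00, adjusted p = 0.268).

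**Figure D2:**
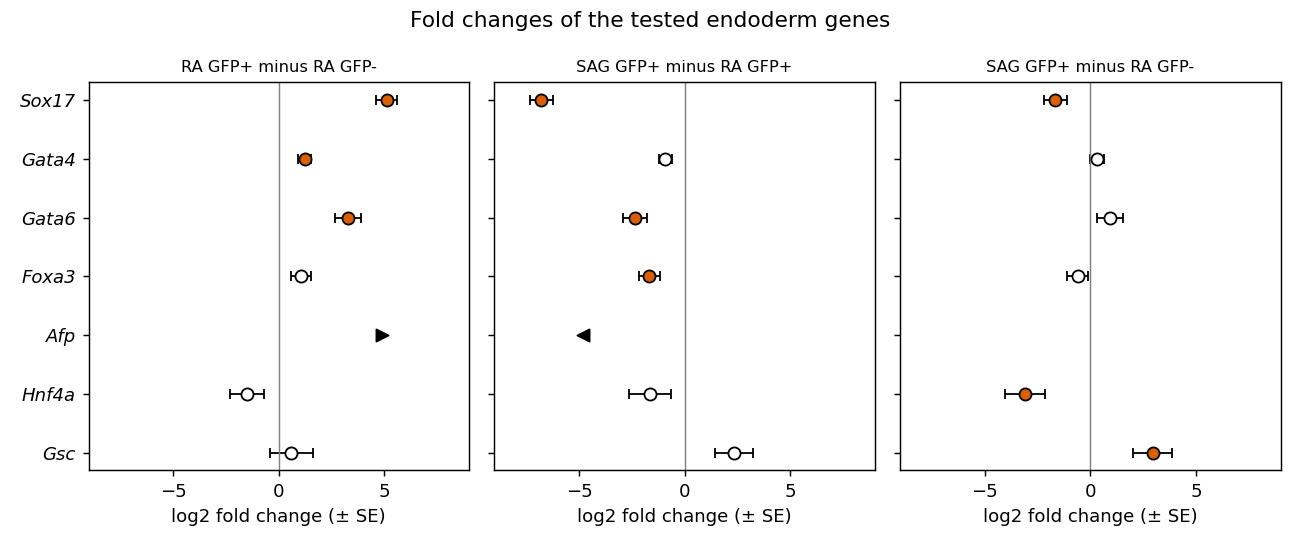
Log2 fold change ± SE (horizontal axis) of the 7 tested genes (rows) in 3 comparisons of 3 against 3 libraries; filled circles are called and open circles not called. Triangles set Afp, which had no counts in SAG GFP+ and RA GFP- libraries, against 3 counts over the group: 29.5-fold higher in RA GFP+ than in RA GFP- and 28.1-fold lower in SAG GFP+ than in RA GFP+. Sox17, Gata6 and Afp lie right of 0 in the first panel and left of 0 in the second.

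Afp and Ttr, secreted products of yolk sac and liver, had counts in RA GFP+ libraries and, apart from 2 counts of Ttr in SAG GFP+ replicate 2, in no other library. Afp (ENSMUSG00000054932, chromosome 5, 90490737 to 90508907, plus strand), the fetal counterpart of albumin, had no counts in the SAG GFP+ and RA GFP- libraries and 22, 54 and 16 counts, or 0.862, 1.81 and 0.558 CPM, in the RA GFP+ libraries. Against 3 counts over a group (0.039 CPM in SAG GFP+ and 0.0371 CPM in RA GFP-), it was at least 28.1-fold lower in SAG GFP+ than in RA GFP+ cells (adjusted p = 0.00337) and at least 29.5-fold higher in RA GFP+ than in RA GFP- cells (adjusted p = 0.00453). Afp was tested through RA GFP+ libraries alone, so these calls follow from its detection there. Without RA GFP+ replicate 2, which held most of the counts, Afp set against 3 counts was 18-fold lower in SAG GFP+ than in RA GFP+ and 18.9-fold higher in RA GFP+ than in RA GFP- cells.

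Ttr (ENSMUSG00000061808, chromosome 18, 20665280 to 20674321, plus strand), a carrier of thyroid hormone and of retinol with its binding protein, had 0, 2 and 0 counts in SAG GFP+, 18, 17 and 3 counts in RA GFP+ and no counts in RA GFP- libraries. The RA GFP+ levels were 0.706, 0.571 and 0.105 CPM, so RA GFP+ replicate 3 was close to the SAG GFP+ library with 0.0749 CPM. Set against 3 counts over the RA GFP- libraries, Ttr was 12.2-fold higher in RA GFP+ than in RA GFP- cells (lower end of the exact 95% interval 9.45-fold). The ratio of SAG GFP+ to RA GFP+ was 0.0574 (exact 95% interval 0.00671 to 0.222). Values set against 3 counts take the RA GFP+ level as measured, and the intervals cover counting error only. Without the filter on low counts Ttr was called in both comparisons (adjusted p = 0.00129 for RA GFP+ against RA GFP- and 0.0168 for SAG GFP+ against RA GFP+). Adjusted p-values without the filter are not comparable with those of the main test. For Sox17 in RA GFP+ against RA GFP- cells the adjusted p was 4.96e-28 without the filter and 4.73e-05 in the main test.

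Ttr is also the leading product of the choroid plexus. The 5 markers of that tissue summed to 5.36 to 8.11 CPM in SAG GFP+, 17.8 to 22.4 CPM in RA GFP+ and 29.9 to 47.9 CPM in RA GFP- libraries. Among them Clic6 averaged 9.77 CPM in RA GFP+ and 1.96 CPM in RA GFP- libraries, while Folr1 averaged 7.39 CPM in RA GFP+ and 30.7 CPM in RA GFP- libraries. Kcnj13, a potassium channel gene of choroid epithelium, had no counts in SAG GFP+ libraries and at most 0.168 CPM elsewhere. Their part in the Ttr level was not tested.

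Cer1 and Gsc, genes of anterior endoderm and of the organizer, had their highest mean in SAG GFP+ cells. Cer1 (ENSMUSG00000038192, chromosome 4, 82881751 to 82885148, minus strand), a secreted antagonist of Nodal, BMP and WNT signals, had 12, 7 and 8 counts in SAG GFP+, 4, 6 and 1 counts in RA GFP+ and 0, 2 and 1 counts in RA GFP- libraries. In CPM, SAG GFP+ libraries (0.489, 0.262 and 0.311) lay above all RA GFP+ libraries (0.157, 0.202 and 0.0349), and these overlapped the RA GFP- libraries (0, 0.0762 and 0.0381). The ratio of SAG GFP+ to RA GFP- was 9.46 (exact 95% interval 2.91 to 48.7), and that of RA GFP+ to RA GFP- was 3.53 (0.933 to 19.7). Cer1 was too low for the main test. Without the filter its adjusted p was 0.0462 for SAG GFP+ against RA GFP-, 0.438 for SAG GFP+ against RA GFP+ and 0.48 for RA GFP+ against RA GFP- cells. These values are not comparable with those of the main test.

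Gsc (ENSMUSG00000021095, chromosome 12, 104471209 to 104473330, minus strand), a homeobox factor of the organizer and prechordal plate, varied widely among replicates. It stood at 2.85, 1.09 and 0.195 CPM in SAG GFP+, at 0.0784, 0.504 and 0.209 CPM in RA GFP+ and at 0.0706, 0.152 and 0.305 CPM in RA GFP- libraries. SAG GFP+ replicate 3 lay inside the range of both RA groups. Gsc was called higher in SAG GFP+ than in RA GFP- cells (log2 fold change 2.94, SE 0.94, adjusted p = 0.0361). The call was lost without RA GFP- replicate 1 (0.118) or 2 (0.102), without SAG GFP+ replicate 1 (0.143, log2 fold change 1.87) or 2 (0.0606) and with a replicate block in all 9 libraries (0.0688), within 0.000836 to 0.143, and the fold change was 3.58 without RA GFP- replicate 3. Against RA GFP+ cells Gsc was not called (2.34, SE 0.89, adjusted p = 0.0773) but was so without SAG GFP+ replicate 3 (0.0249) and without the filter (0.00787), within 0.00787 to 0.311. The value without the filter is not comparable with the main one. Between RA GFP+ and RA GFP- cells the log2 fold change was 0.61 (SE 1.00, adjusted p = 0.741), with the sign turned without RA GFP+ replicate 2.

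Per kilobase of exon, the order of the 9 genes changed between groups. In RA GFP+ cells Sox17 led with 9.70 ± 2.22 CPM per kb (SD, n = 3), followed by Gata4 (1.76 ± 0.334) and Gata6 (0.973 ± 0.301), and the ranges of these 3 did not overlap. Below them Foxa3, Ttr, Afp, Gsc, Cer1 and Hnf4a ran from 0.630 down to 0.0608 CPM per kb, each overlapping the next. In SAG GFP+ cells Gsc (1.09 ± 1.07) and Gata4 (0.942 ± 0.327) were the highest and overlapped, and Sox17 came sixth with 0.0889 ± 0.0912 CPM per kb. In RA GFP- cells Gata4 led with 0.750 ± 0.169 CPM per kb, above Foxa3 (0.304 ± 0.0658) and Sox17 (0.278 ± 0.0740), which overlapped each other. Foxa2, the sorted gene, stood at 66.7 ± 10.9 CPM per kb in RA GFP+ cells.

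The genes whose pattern was most like each tested member were found by the root mean square difference of mean-centred log2 CPM over the 9 libraries. For Sox17 these were Cubn (difference 0.848), Osr1 (0.918) and Six2 (0.989). Cubn, an endocytic receptor of visceral endoderm and kidney, averaged 0.119 CPM in SAG GFP+, 10.7 CPM in RA GFP+ and 0.323 CPM in RA GFP- libraries, and Six2, a homeobox factor of kidney and face mesenchyme, averaged 0.758 CPM in SAG GFP+, 41.1 CPM in RA GFP+ and 1.63 CPM in RA GFP- libraries. For Afp they were Lum (0.466), Runx2 (0.470) and Col8a1 (0.490), which are known from connective tissue and bone. For Gata6 they were Il13ra1 (0.450), Mettl24 (0.593) and AI661453 (0.627), and for Gata4 Adra2b (0.221), Raet1d (0.251) and the pseudogene Gm38699 (0.253). Foxa3 was most like Grin2d (0.257), Gas6 (0.277) and Col7a1 (0.278). Hnf4a was most like Hsf4 (0.396), Nxnl2 (0.482) and AI467606 (0.490), and Gsc was most like Gabbr2 (0.773), Wnk4 (0.796) and Npas1 (0.799).

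Other genes of definitive endoderm and gut moved in part with Sox17. Of 16 tested members of this list of 19, which holds Foxa2 itself, 6 rose and 10 were not called in RA GFP+ against RA GFP- cells, with a median log2 fold change of 0.71. Besides Foxa1 and Foxa2 the risers were Prdm1, Tmprss2, Nepn and Cldn6. Foxa1 and Foxa2 are also among the floor plate markers, of which 7 of 8 tested rose in this comparison (median 3.91). The rise of Foxa2, the sorted gene, was set by the sort, so it adds nothing to the count. In SAG GFP+ against RA GFP+ cells 6 fell and Foxa2, Cxcr4 and Prox1 rose (median -0.46). Of all tested genes 8.49% rose in the first comparison, and 14.8% fell and 9.78% rose in the second. Nepn reached the filter level in RA GFP+ libraries alone, so it had to differ. Without Nepn 5 of 15 rose in RA GFP+ against RA GFP- cells, with Foxa2 still among them. Likewise 5 of 15 fell in SAG GFP+ against RA GFP+ cells. Prdm1, a zinc-finger repressor, stood at 6.44, 5.99 and 7.83 CPM in SAG GFP+, at 82.0, 122 and 79.2 CPM in RA GFP+ and at 25.4, 23.8 and 25.4 CPM in RA GFP- libraries, and it fell in SAG GFP+ against RA GFP+ cells (-3.80, adjusted p = 7.1e-07). The membrane protease gene Tmprss2 stood at 1.30, 0.30 and 0.156 CPM in SAG GFP+ and at 25.6, 13.0 and 15.4 CPM in RA GFP+ libraries, and fell likewise (-4.95, adjusted p = 0.000142; -6.25 without SAG GFP+ replicate 1). Mixl1, an early mesendoderm factor that was not tested, had 11.9 CPM in SAG GFP+ replicate 1 and at most 0.353 CPM in the other 8 libraries. The epithelial genes Epcam and Cdh1 were not called in the 3 comparisons.

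The list of visceral endoderm and liver products split between genes at a measurable level and genes near 0. Of its 19 members 8 were too low to test, among them Alb, Apoa1, Apoa2 and the fibrinogen genes Fga, Fgb and Fgg, and Apoc2 had no counts in any library. Alb, the main liver product, had 0.101 CPM in RA GFP+ replicate 2 and no counts in the other 8 libraries. Of the 11 tested, 5 rose and 6 were not called in RA GFP+ against RA GFP- cells (median 1.47), and 7 fell in SAG GFP+ against RA GFP+ cells (median -2.25). Of all tested genes 8.49% rose in the first comparison and 14.8% fell in the second. The hedgehog ligand gene Ihh likewise passed through RA GFP+ libraries alone, and without it 4 of 10 rose in RA GFP+ against RA GFP- cells and 6 of 10 fell in SAG GFP+ against RA GFP+ cells. These counts still hold Cubn, which reached the filter level in 3 RA GFP+, 1 RA GFP- and 0 SAG GFP+ libraries, and Trf (3, 2 and 0). Both were tested mainly through the RA GFP+ libraries, so their calls add little to the counts. Cubn stood at 0.244, 0.0749 and 0.0389 CPM in SAG GFP+, at 14.8, 11.1 and 6.28 CPM in RA GFP+ and at 0.282, 0.457 and 0.228 CPM in RA GFP- libraries. It fell in SAG GFP+ against RA GFP+ cells (log2 fold change -6.45, SE 0.57, adjusted p = 2.08e-05; -7.42 without SAG GFP+ replicate 1) and rose in RA GFP+ against RA GFP- cells (5.03, adjusted p = 7.74e-05). Its partner Amn, which anchors cubilin at the membrane, was not called between RA GFP+ and RA GFP- cells, with 1.57, 0.437 and 0.767 CPM in RA GFP+ and 2.26, 1.56 and 2.17 CPM in RA GFP- libraries, and fell in SAG GFP+ against RA GFP+ cells (-2.11, adjusted p = 0.0415). Dab2, an endocytic adaptor, rose in RA GFP+ against RA GFP- cells (1.98, adjusted p = 0.000873). Rhox5, an X-linked homeobox gene, fell in SAG GFP+ against RA GFP+ cells (-2.50, adjusted p = 0.00018), although reads of this multigene family can be split between copies.

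Of the 10 genes of primitive and parietal endoderm, 6 rose and 4 were not called in RA GFP+ against RA GFP- cells (median 1.71), and 5 fell in SAG GFP+ against RA GFP+ cells (median -1.14). Of all tested genes 8.49% rose in the first comparison and 14.8% fell in the second. The basement membrane collagen gene Col4a1 stood at 131, 104 and 123 CPM in SAG GFP+, at 406, 497 and 573 CPM in RA GFP+ and at 51.1, 52.3 and 56.4 CPM in RA GFP- libraries. Its log2 fold change was 3.21 in RA GFP+ against RA GFP- cells (adjusted p = 8.39e-07) and -2.04 in SAG GFP+ against RA GFP+ cells (adjusted p = 4.48e-06). Col4a2, which is transcribed from the same locus, moved likewise (2.56 and -2.13). Sox7, the SoxF factor of primitive endoderm, was not called and stood at 0.941, 1.14 and 1.47 CPM in RA GFP+ and at 0.388, 0.610 and 0.457 CPM in RA GFP- libraries. Type IV collagen is made by many cell types.

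**Figure D3:**
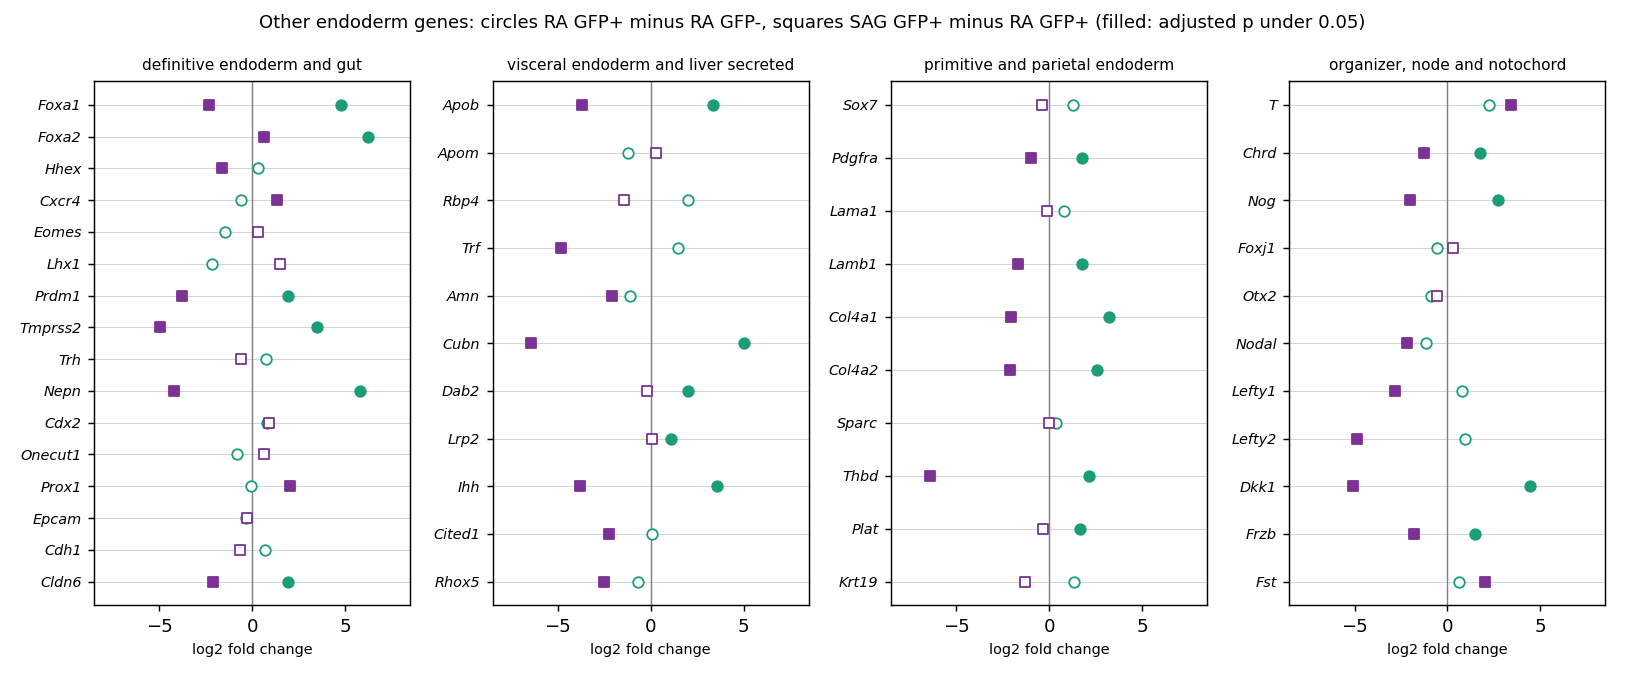
Log2 fold change (horizontal axis) of the tested genes (rows) of 4 further endoderm and organizer lists; circles compare RA GFP+ with RA GFP-, squares SAG GFP+ with RA GFP+, and filled symbols are called. Cubn, Tmprss2, Col4a1 and Dkk1 have a filled circle to the right of 0 and a filled square to the left.

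Among 12 organizer, node and notochord genes, 11 were tested, and Chrd, Nog, Dkk1 and Frzb, all secreted antagonists of BMP or WNT signals, were those that rose in RA GFP+ against RA GFP- cells (median 0.95). Of all tested genes 8.49% rose in this comparison. In SAG GFP+ against RA GFP+ cells 7 fell and 2 rose (median -1.83), where 14.8% of all tested genes fell and 9.78% rose. The risers were T and Fst. Without SAG GFP+ replicate 1, where T was highest, 1 rose. Dkk1 stood at 0.896, 0.262 and 0.195 CPM in SAG GFP+, at 26.8, 8.27 and 10.5 CPM in RA GFP+ and at 1.41, 0.381 and 0.267 CPM in RA GFP- libraries, and fell in SAG GFP+ against RA GFP+ cells (-5.07, adjusted p = 0.000534; -4.38 if RA GFP+ replicate 1 was left out and -6.00 if SAG GFP+ replicate 1 was). Lefty2, a Nodal antagonist, stood at 3.42, 0.712 and 0.156 CPM in SAG GFP+ and at 64.9, 19.8 and 40.9 CPM in RA GFP+ libraries (-4.88, adjusted p = 0.00088; -6.55 without SAG GFP+ replicate 1). Noto, a node factor, was too low to test and had counts in SAG GFP+ replicates 1 and 3 alone.

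These list counts rested partly on the treatment of the replicate number, which was taken to pair the RA libraries. With the replicate number as a block in the 6 RA libraries, RA GFP+ against RA GFP- cells gave 9 higher and 3 lower in the gut list, 6 higher and 2 lower in the visceral endoderm list, 10 higher in the primitive endoderm list and 8 higher and 2 lower in the organizer list. In that fit 32.2% of all tested genes were called, 16.1% in each direction, against 16.9% in the fit of 9 libraries. Nepn and Ihh, which passed the filter through RA GFP+ libraries, were not set apart in these lists. Without SAG GFP+ replicate 1, SAG GFP+ against RA GFP+ cells gave 8 lower and 2 higher in the gut list and 8 lower in the visceral endoderm list, where 28.6% of all tested genes were called, 12% higher and 16.5% lower. In SAG GFP+ against RA GFP- cells the gut list gave 3 higher and 1 lower, and 4 higher and 6 lower without that library, where 33.8% of all tested genes were called, 14.8% higher and 18.9% lower. Leaving out that library let 17408 genes pass the filter, against 16772 with all 9, so the lists could hold more tested genes. Nepn, Ihh, Cubn and Trf, tested through RA GFP+ libraries, were not set apart there, so the growth in calls may come in part from the filter. Foxa2, the sorted gene, is among the higher genes of the gut list in each comparison with RA GFP- cells. In the fit of all 9 libraries, the visceral endoderm list gave 2 higher and 4 lower in SAG GFP+ against RA GFP- cells. There the primitive endoderm list gave 3 higher and 1 lower, and the organizer list 2 higher and 3 lower. That fit called 28.5% of all tested genes in this comparison, 12% higher and 16.5% lower.

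**Figure D4:**
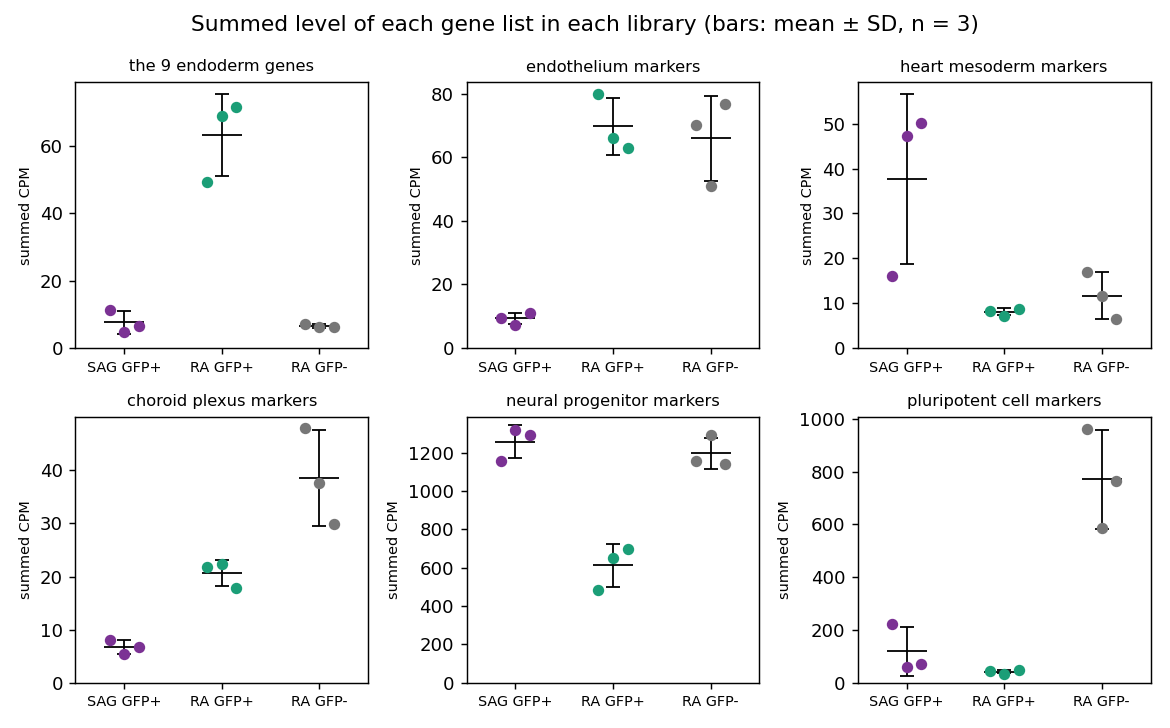
Summed CPM (vertical axis, linear from 0, a scale for each panel) of the 9 endoderm genes and of marker lists of other cell types in the libraries of SAG GFP+, RA GFP+ and RA GFP- cells (horizontal axis); points are libraries and bars the mean ± SD, with the lower end cut at 0. The endoderm sum is 49.1 to 71.4 CPM in RA GFP+ libraries and at most 11.4 CPM in the others. The endothelial sum is at most 11.0 CPM in SAG GFP+ and overlaps between both RA groups. Pecam1 makes up most of that sum in RA GFP- libraries but not in RA GFP+ libraries.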

How the data were processed

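Poly(A) RNA libraries were made with a directional kit, per the labels' protocols. The authors deposited raw counts per Ensembl gene ID, 1 column per library. The submitters' processing notes name Trim Galore 0.5.0, Bowtie2 2.3.4.1, featureCounts and Subread 1.6.2, and the build GRCm38. The strand setting, annotation release and handling of multi-mapped reads are not stated, so genes that overlap another gene are uncertain. Symbols (54409 of 54532 IDs), exon lengths and 1-based coordinates came from GENCODE M21 on the same build, and upstream windows from RefSeq.

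Counts were tested with edgeR 4.0.16 in R 4.3.3, as 1 model over the 9 libraries (group means, TMM scaling, filterByExpr with a minimum count of 10, quasi-likelihood tests), after a test on simulated data. SE is the log2 fold change over the square root of F. Log2 CPM used a prior count of 2. The members and gene lists were chosen with earlier results of these data known. Beside the 9 members, genes are named as the 2 called list members with the smallest adjusted p in a comparison and the 3 genes most like a member, and other list genes were named after their values were seen. 2 genes of these lists are not reported here and entered no list count. Alternatives were RLE scaling, DESeq2 1.42.0, no filter, leaving out each library, fits of 6 libraries and the replicate block. The fit without the filter had other error estimates: for Sox17 in RA GFP+ against RA GFP- cells the SE was 0.31, against 0.48 in the main fit. Its adjusted p-values are not comparable with the main ones, and some of the ranges given start at them. Alternatives for the lists and list genes were added after seeing the data. Deviations from the group means correlated across genes between same-numbered RA libraries (r = 0.273, 0.307 and 0.347), so the numbers were taken to pair these libraries. Between SAG GFP+ and RA GFP+ libraries r was 0.111, -0.0816 and 0.182, and between SAG GFP+ and RA GFP- libraries 0.175, -0.0218 and 0.242. Libraries with different numbers were not compared, so whether the numbers pair the SAG libraries with the RA libraries stayed unclear.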

Additional observations from a re-analysis of the deposited data

How the results depend on the processing

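Over 15 alternatives, the 20 fold changes of tested members kept direction and call in 259 instances, lost the call in 28, gained it in 5 and turned sign in 2 uncalled ones: Gsc in RA GFP+ against RA GFP- cells (-0.25 without RA GFP+ replicate 2, up to 1.24 without RA GFP- replicate 3) and Gata6 in SAG GFP+ against RA GFP- cells (-0.13 without SAG GFP+ replicate 1, up to 1.41 without SAG GFP+ replicate 2). In 6 instances the gene was too low to test. Sox17 and Gata6 stayed called under all 15 in RA GFP+ against RA GFP- and in SAG GFP+ against RA GFP+ cells.

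Leaving out 1 library at a time, the genes called numbered 1783 to 3368 for RA GFP+ against RA GFP- (2838 with all), 2747 to 4972 for SAG GFP+ against RA GFP+ (4117) and 3365 to 5876 for SAG GFP+ against RA GFP- (4787). The members called numbered 3 to 5, 3 to 5 and 0 to 2. With all libraries they were 4, 4 and 3 of 7 tested, where 16.9%, 24.5% and 28.5% of all tested genes were called. In some fits the filter let in 8 members. Afp, tested through RA GFP+ libraries alone, was called in each fit of the first 2 comparisons, so part of these counts was set by the filter. Each of the 3 calls between SAG GFP+ and RA GFP- cells was lost when any 1 of several libraries was left out. Their fold changes kept their sign over all alternatives (log2 -2.76 to -1.11 for Sox17, -7.48 to -2.51 for Hnf4a and 1.87 to 3.58 for Gsc). Of 8 members then tested in edgeR, 0 were called without RA GFP- replicate 1, with 3 at an unadjusted p under 0.05 and 0 called by DESeq2, and 0 without SAG GFP+ replicate 2, with 4 at an unadjusted p under 0.05 and 2 called by DESeq2. With the replicate number as a block in the 6 RA libraries 5240 genes were called for RA GFP+ against RA GFP-. For SAG GFP+ against RA GFP- 1 member was called in the fit of the 6 libraries compared, and 1 with a replicate block in those. The cause was not tested. The replicate block changed the call of Hnf4a in RA GFP+ against RA GFP- and of Gsc in SAG GFP+ against RA GFP- cells, and of no other member. Sox17's call in SAG GFP+ against RA GFP- cells was lost in the fit of the 6 libraries compared, with or without the block.

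Ttr, Cer1, Hnf4a and Gsc had at most 104 counts in any group, and at this depth small differences in them were not detectable.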
